A study of Mus musculus with 20 samples.

Results

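The 32 genes described here encode proteins that build ribosomes in the nucleolus: nucleolar chaperones, the proteins of the box C/D and box H/ACA small nucleolar ribonucleoproteins (snoRNPs), 2 catalytic subunits of RNA polymerase I, and assembly factors of the small and large ribosomal subunits. They were taken from a list of gene symbols, chosen with earlier results of these data known. Their shares set beside those of all features below are therefore a description and not a test. A gene counted as measured when a probe for it had a detection p-value under 0.01 on at least 5 of the 20 arrays, and the probe with the highest mean stood for the gene. Of the 32 genes, 30 had a probe on the array and 24 were measured, out of 12921 genes and unnamed probes measured in all. The probes that stood for the 24 measured genes were detected on all 20 arrays, so none passed the filter through one group alone. Nop16, Dkc1, Wdr12 and Utp20 were detected on 0 arrays, Nolc1 on 2 and Rrs1 on 3, and no value is given for them. Npm3 and Fbl were not among the annotated probes used here.

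Left ventricles were taken from C57BL/6J mice, aged 12-15 weeks, 3 days after ligation of a coronary artery, which causes a myocardial infarction (MI), or after a sham operation. The infarct itself was cut away, so the samples hold surviving muscle together with its vessels, fibroblasts and immune cells. Males and females with MI or sham surgery made 4 groups of 5 mice, with 1 Illumina expression array per mouse and no transgene or drug in any group. The comparisons address how the surviving ventricle responds to an infarct and whether the response differs between the sexes. Values below are log2 intensities after background correction and quantile normalisation. A difference is MI minus sham on that scale, with its standard error (SE), and a gene was called when limma's adjusted p, by Benjamini-Hochberg over all 12921 features, was under 0.05.

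Ribosomes are assembled in the nucleolus. RNA polymerase I transcribes one long precursor of the ribosomal RNAs, box C/D snoRNPs methylate it and box H/ACA snoRNPs convert uridines in it to pseudouridine, and a succession of assembly factors cleaves, folds and exports the small and large subunits. Many of these genes are known targets of the transcription factor Myc, they are raised in dividing and growing cells, and in the heart ribosome production rises when cardiomyocytes enlarge.

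After MI, 4 of the 24 measured genes rose in males and 7 rose in females, and all 4 of the male genes, Npm1, Nop58, Nhp2 and Nip7, were among the 7. Over all features 9.77% were called higher in males and 16.5% in females. Gar1, Ppan and Wdr43 were called in females only, a difference between the sexes that did not pass its own test. Rrp9 fell in males and was the only listed gene called lower in either sex. The rises were modest, between 1.29-fold for Npm1 in females and 1.67-fold for Ppan and Nhp2, also in females. The 2 RNA polymerase I subunits were not called in either sex.

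Promoter sequences of 5 of the called genes are shown because these genes were higher after MI in the same hearts and their start regions hold a match to a motif searched in all promoters. They come from RefSeq on the GRCm38.p6 build, cover 250 bases before to 50 bases after the start, run 5′ to 3′ along the gene's own strand, and are in lower case with the matches in capitals. The capitals mark CCGGAAG, the core of a site for ETS transcription factors, or its reverse complement, in all but Wdr43, where they mark CACGTG, the E-box bound by Myc and Max. The Nhp2 promoter lies at chr11:51619523-51619822 on the plus strand, Gar1 at chr3:129831347-129831646 on the minus strand, Nip7 at chr8:107056627-107056926 on the plus strand, Ppan at chr9:20887925-20888224 on the plus strand and Wdr43 at chr17:71615965-71616264 on the plus strand.
Nhp2: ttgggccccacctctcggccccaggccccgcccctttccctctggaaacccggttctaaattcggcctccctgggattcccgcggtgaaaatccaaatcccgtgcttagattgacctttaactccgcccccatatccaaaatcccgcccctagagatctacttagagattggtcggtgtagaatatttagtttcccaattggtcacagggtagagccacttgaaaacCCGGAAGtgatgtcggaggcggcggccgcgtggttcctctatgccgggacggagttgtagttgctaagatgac
Gar1: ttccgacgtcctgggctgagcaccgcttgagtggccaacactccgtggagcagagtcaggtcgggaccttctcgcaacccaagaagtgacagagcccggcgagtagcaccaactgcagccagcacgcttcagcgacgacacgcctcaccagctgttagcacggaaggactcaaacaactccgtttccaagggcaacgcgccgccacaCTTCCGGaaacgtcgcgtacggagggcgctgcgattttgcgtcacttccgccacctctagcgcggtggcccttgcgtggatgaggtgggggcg
Nip7: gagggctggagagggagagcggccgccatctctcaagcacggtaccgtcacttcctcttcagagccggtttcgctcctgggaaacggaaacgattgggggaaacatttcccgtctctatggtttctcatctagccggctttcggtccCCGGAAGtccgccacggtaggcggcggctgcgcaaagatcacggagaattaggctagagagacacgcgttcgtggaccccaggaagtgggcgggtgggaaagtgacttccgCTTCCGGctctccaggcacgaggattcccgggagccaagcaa
Ppan: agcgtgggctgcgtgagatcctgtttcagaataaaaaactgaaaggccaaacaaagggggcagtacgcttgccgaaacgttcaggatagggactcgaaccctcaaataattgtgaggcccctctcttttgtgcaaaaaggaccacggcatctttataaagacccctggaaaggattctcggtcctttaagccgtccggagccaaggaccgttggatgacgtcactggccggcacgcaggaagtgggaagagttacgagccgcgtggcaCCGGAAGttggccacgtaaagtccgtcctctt
Wdr43: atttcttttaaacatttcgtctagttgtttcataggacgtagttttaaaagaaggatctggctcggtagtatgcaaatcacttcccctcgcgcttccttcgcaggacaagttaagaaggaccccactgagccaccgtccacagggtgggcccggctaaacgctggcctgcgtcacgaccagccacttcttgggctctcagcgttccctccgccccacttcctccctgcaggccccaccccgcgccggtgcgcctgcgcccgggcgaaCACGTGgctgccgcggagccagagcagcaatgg

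The match began 23 bases before the start in Nhp2, 43 before it in Gar1, 103 before and 8 after it in Nip7, 18 after it in Ppan and 17 after it in Wdr43. Promoters were given for 27 of the 32 genes, as 30 sequences, and Npm1, Fbl, Rrp12, Rrs1 and Bop1 had none in the table. Searched on both strands, CCGGAAG occurred in 8 of these 30 promoters (26.7%), against 16.7% of the promoters of tested genes and 8.86% of all 32851. Of these 8, Nhp2, Gar1, Nip7 and Ppan were called after MI. Ebna1bp2, Nop2 and Tsr1 were measured and not called, and Nolc1 was not measured. CACGTG occurred in 6 of the 30 (20%), against 10% of the promoters of tested genes and 7.15% of all promoters. The 6 were Utp20, Wdr43, Tsr1, Pes1, Nop2 and Mybbp1a, and of these Wdr43 alone was called after MI. GCGCATG, an NRF1 motif, was present in Dkc1 alone (3.33%, against 6.57% of the promoters of tested genes and 3.91% of all promoters), and TGACGTC, a cyclic AMP response element, in Ncl and Ppan (6.67%, against 5.08% and 3.21%). The 30 promoters include those of genes that were not measured. Of the 22 promoters of measured listed genes, 7 (31.8%) held CCGGAAG, 5 (22.7%) CACGTG, 0 GCGCATG and 2 (9.09%) TGACGTC. None of these motifs is part of another, and a match is no evidence that a factor binds there. The promoters of Nop58 and Rrp9 held neither CCGGAAG nor CACGTG.

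The raw median intensity of the arrays lay between 31.4 and 39.2, and 34.6% to 40.6% of probes were detected. Heart muscle was borne out by its transcripts, with 15 of 16 listed cardiomyocyte markers measured and their sum between 118737 and 139425 intensity units. These markers do not tell ventricle from atrium. Of 6 listed atrial markers 5 were measured, with sums between 6865 and 23859, and a share of atrial tissue was not tested. The arrays lay on 4 chips. Chip 1 held 3 mice of each male group, chip 2 held 2 of each male group and 2 female sham mice, chip 3 held 2 female sham and 4 female MI mice, and chip 4 held 1 of each female group, so sex and chip nearly coincided. Chip position F held male sham 3, female MI 4 and female sham 2, and 1045 features (8.09%) averaged more than 0.5 lower there than in other positions, relative to their group means. Of the measured listed genes, Pes1, Ddx21, Bop1 and Rrp12 were among these. Features higher in position F were not counted. Of the called genes, Wdr43, Ppan, Rrp9, Nop58 and Nhp2 averaged 0.42, 0.36, 0.35, 0.34 and 0.32 higher there. Gar1 and Nip7 averaged 0.11 and 0.06 higher, and Npm1 shifted by -0.09. Female MI 4 was the highest female MI heart for Nop58, Nhp2, Ppan, Nip7 and Wdr43. Numbers such as male sham 3 name mice within a group.

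In the male comparison, the 4 genes called higher were 16.7% of the 24 measured, where 9.77% of all features were called higher. The 1 called lower was 4.17%, where 8.59% of all features were. In either direction 18.4% of features were called, 1263 higher and 1110 lower. With scaling to the 75th percentile in place of quantile normalisation this split became 998 higher and 2047 lower and the median of all features moved to -0.13. The median difference of the listed genes was 0.14 against -0.04 for all features, and 17 of the 24 differences lay above 0, or 70.8% against 44.4% of all features. In the female comparison, the 7 genes called higher were 29.2% of the 24, where 16.5% of all features were called higher, 16.3% lower and 32.7% in either direction. The median difference was 0.28 against -0.05 for all features, and again 17 of 24 lay above 0. Most of the listed genes were therefore not called, 19 in males and 17 in females.

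**Figure D1:**
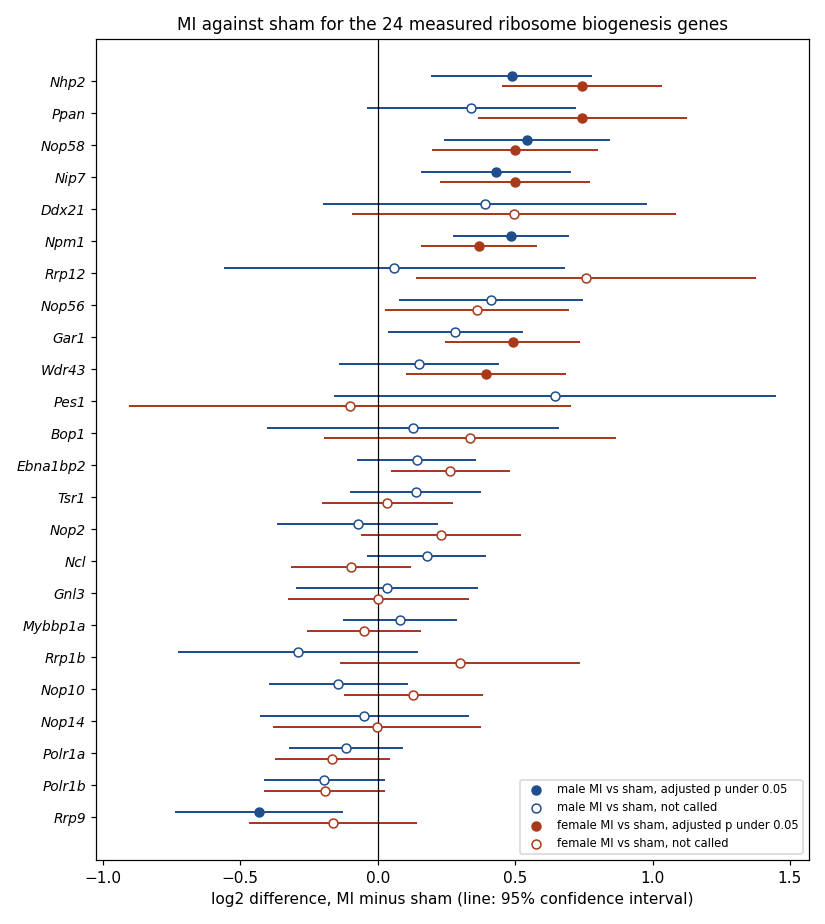
Difference in log2 intensity between MI and sham (horizontal axis, MI minus sham) for the 24 measured genes (vertical axis), males in blue and females in red, with 95% confidence intervals from limma as lines (n = 5 mice per group). Filled points mark an adjusted p under 0.05: 4 genes to the right of 0 and Rrp9 to the left in males, 7 genes to the right in females.

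Among the nucleolar chaperones, Npm1 encodes nucleophosmin, an abundant nucleolar protein that binds ribosomal proteins, histones and p53 regulators. The Npm1 level was 11.54, 11.55, 11.47, 11.65 and 11.57 in the 5 male sham hearts and 12.03, 12.30, 12.08, 11.79 and 12.02 in the 5 male MI hearts. The female sham hearts gave 11.70, 11.67, 12.01, 11.86 and 11.61 and the female MI hearts 12.09, 12.29, 11.99, 12.09 and 12.24. Every male MI heart was above every male sham heart, whereas in females only female MI 3, at 11.99, lay just below the highest sham heart. Npm1 rose by 0.49 (SE 0.102, adjusted p = 0.00242) in males and by 0.37 (SE 0.102, adjusted p = 0.00829) in females. Ncl, which encodes nucleolin, a histone chaperone and RNA-binding protein of the nucleolus, was not called, with differences of 0.18 (adjusted p = 0.251) in males and -0.10 (adjusted p = 0.512) in females. A second Ncl probe gave 0.16 in males and 0.37 in females and was not called.

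Of the box C/D proteins, Nop56 and Nop58 form the scaffold on which the methyltransferase fibrillarin sits. Nop58 read 8.65, 8.54, 8.89, 8.25 and 8.49 after sham and 9.10, 9.41, 9.16, 8.90 and 8.95 after MI in males. In females it read 8.28, 8.73, 8.74, 8.38 and 8.32 after sham and 8.86, 9.22, 8.63, 9.28 and 8.96 after MI. The male groups were separated by a narrow margin and the female groups overlapped through female MI 3. Nop58 rose by 0.54 (SE 0.145, adjusted p = 0.0131) in males and 0.50 (SE 0.145, adjusted p = 0.0115) in females. Its partner Nop56 differed by 0.41 (adjusted p = 0.079) in males and 0.36 (adjusted p = 0.0924) in females and was not called.

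Rrp9, the protein that recognises the U3 snoRNA needed for early cleavage of the precursor, went the other way. It measured 8.06, 7.92, 8.19, 7.36 and 7.60 in male sham hearts and 7.19, 7.59, 7.51, 7.37 and 7.31 in male MI hearts. The first 3 sham hearts, all on chip 1, were high, and the other 2, on chip 2, lay inside or just above the MI range. Rrp9 fell by 0.43 (SE 0.147, adjusted p = 0.0445) in males, and the difference was -0.63 within chip 1 and -0.14 within chip 2. The call was lost without any 1 of 11 arrays (male sham 1, 2 or 3, male MI 1, 3, 4 or 5, female sham 1 or 5, female MI 1 or 2), and the adjusted p over all 20 such fits ran from 0.00958 to 0.129. It was also lost with no filter on detection (adjusted p = 0.0881), in a fit of the male groups alone (0.054) and without the arrays in position F (0.0679). In females the values were 7.35, 7.94, 7.44, 7.40 and 7.41 after sham and 7.49, 7.40, 7.12, 7.44 and 7.27 after MI. There, female sham 2 alone stood high and the difference was -0.16 (adjusted p = 0.422).

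The box H/ACA proteins Nhp2, Gar1 and Nop10 join dyskerin, the pseudouridine synthase, in each particle and also in telomerase. Nhp2 values in males were 9.05, 8.80, 9.03, 8.67 and 8.91 for sham and 9.19, 9.51, 9.46, 9.37 and 9.37 for MI. In females they were 8.85, 9.22, 8.60, 8.84 and 8.73 for sham and 9.77, 9.66, 9.05, 9.90 and 9.58 for MI. All male MI hearts exceeded all male sham hearts, and 4 of the 5 female MI hearts exceeded all female sham hearts. Nhp2 rose by 0.49 (SE 0.14, adjusted p = 0.0195) in males and by 0.74 (SE 0.14, adjusted p = 0.000415) in females, which was the smallest adjusted p among the listed genes in any comparison.

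Gar1 values were 9.20, 8.97, 9.24, 8.94 and 9.07 in male sham and 9.31, 9.39, 9.43, 9.33 and 9.37 in male MI hearts. In female hearts Gar1 read 8.97, 9.12, 8.63, 9.25 and 9.18 after sham and 9.54, 9.79, 9.19, 9.54 and 9.54 after MI. Male MI hearts were tightly grouped just above the sham hearts, and female MI 3 again lay within the sham range. Gar1 rose by 0.49 (SE 0.118, adjusted p = 0.00323) in females, and in males, where the groups did not overlap, the difference of 0.28 (adjusted p = 0.102) was not called. A second Gar1 probe differed by -0.06 in males and -0.16 in females and was not called, and with the mean of both probes the female adjusted p was 0.204. Nop10 differed by -0.14 (adjusted p = 0.442) in males and 0.13 (adjusted p = 0.441) in females. Dkc1, the gene of dyskerin, was not detected on any array.

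**Figure D2:**
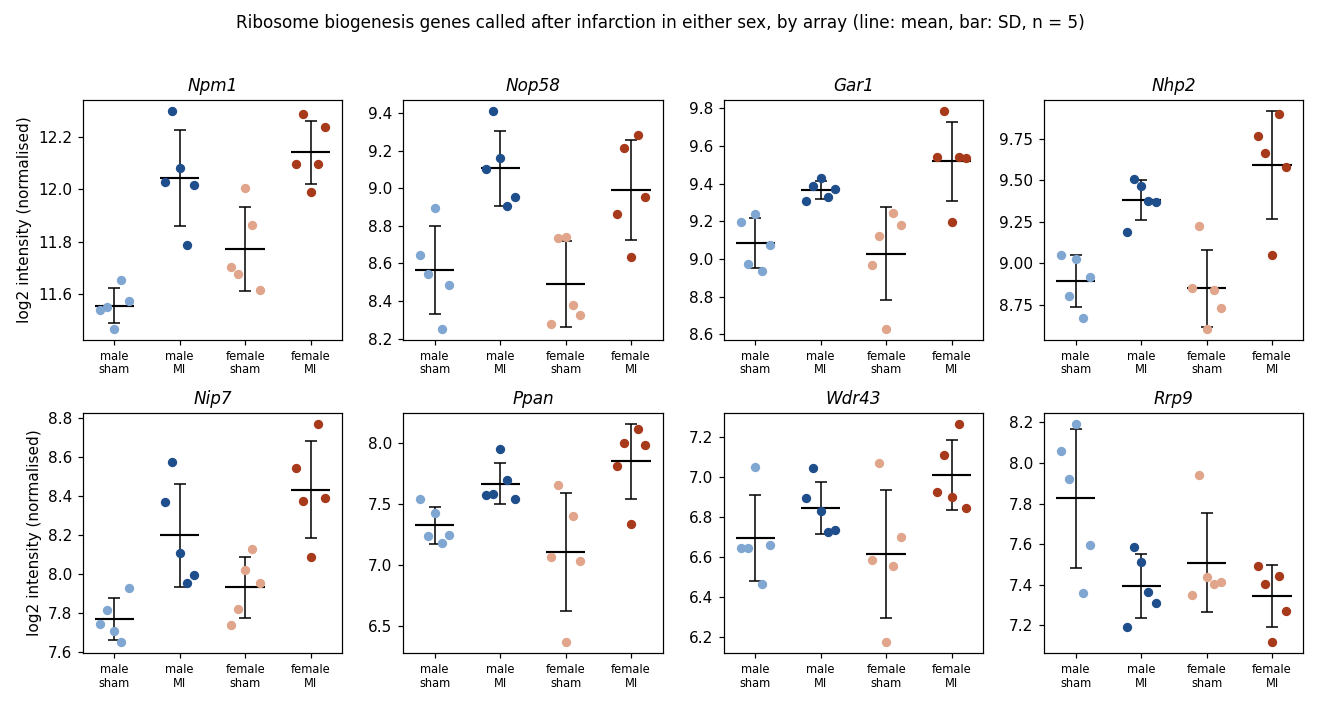
Normalised log2 intensity (vertical axis, a separate scale in each panel) of the 8 genes called after MI in either sex, by group (horizontal axis). Each point is 1 heart, with the mean as a line and the SD as a bar (n = 5); male MI points lie wholly above male sham points for Npm1, Nop58, Gar1, Nhp2 and Nip7, and Rrp9 shows 3 high male sham hearts.

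RNA polymerase I is represented by its catalytic core, Polr1a and Polr1b. In males Polr1a ranged from 9.16 to 9.45 after sham and from 9.01 to 9.33 after MI, and in females from 8.99 to 9.36 after sham and from 8.85 to 9.19 after MI. These ranges overlapped in both sexes. Its difference was -0.12 (adjusted p = 0.452) in males and -0.17 (adjusted p = 0.219) in females. Polr1b differed by -0.19 (adjusted p = 0.214) in males, with an interval of -0.41 to 0.03, and by -0.19 (adjusted p = 0.171) in females, with an interval of -0.41 to 0.03. Of 3 further Polr1a probes that passed the filter, none was called, with differences between -0.72 and -0.05 in males and between -0.32 and -0.06 in females.

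Of the 4 measured small subunit factors, Wdr43, a component of the early complex that binds the nascent precursor, was the one called. Wdr43 read 6.59, 7.07, 6.17, 6.56 and 6.70 in female sham and 6.93, 7.11, 6.90, 7.27 and 6.85 in female MI hearts. The groups overlapped because female sham 2 lay among the MI hearts. Wdr43 rose by 0.39 (SE 0.14, adjusted p = 0.0351) in females. The call was lost without any 1 of 5 arrays (female sham 1, 3 or 4, female MI 2 or 4), with an adjusted p of up to 0.107, with no filter on detection (0.066) and in a fit of the female groups alone (0.0885). In males the values were 6.65, 6.65, 7.05, 6.46 and 6.66 after sham and 6.89, 7.04, 6.83, 6.73 and 6.73 after MI, a difference of 0.15 (adjusted p = 0.488). Nop14, a processome component, differed by -0.05 in males and 0.00 in females, and Tsr1, which caps the late small subunit precursor in the cytoplasm, by 0.14 and 0.04. Neither was called. A second Tsr1 probe gave -0.13 in males and -0.10 in females and was not called.

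Rrp12, which takes part in export of the small subunit precursor, had a large female difference resting on 1 heart. Its values were 8.81, 6.69, 8.61, 8.74 and 9.18 in female sham and 9.31, 9.31, 8.93, 9.03 and 9.25 in female MI hearts. Female sham 2, in position F, was far below all other arrays. The difference of 0.76 (SE 0.298, adjusted p = 0.0555) missed the threshold and was 0.33 without that heart. Rrp12 in males read 9.26, 9.24, 9.32, 8.64 and 9.25 after sham and 8.97, 9.29, 9.39, 9.21 and 9.16 after MI. The groups overlapped, with male sham 4 the lowest, and the difference was 0.06 (adjusted p = 0.911).

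Among 7 measured large subunit factors, Nip7 and Ppan were called. Nip7 associates with early large subunit precursors, and in human cells its loss impairs processing of the ribosomal RNA precursor. Nip7 read 7.74, 7.81, 7.71, 7.65 and 7.93 in male sham and 8.37, 8.57, 8.11, 7.96 and 7.996 in male MI hearts. In females Nip7 read 7.74, 7.82, 8.02, 8.13 and 7.95 after sham and 8.54, 8.38, 8.09, 8.77 and 8.39 after MI. Male MI hearts all lay above male sham hearts, the 2 on chip 2 only just, and in females female MI 3 alone lay below the highest sham heart. Nip7 rose by 0.43 (SE 0.131, adjusted p = 0.0264) in males and 0.50 (SE 0.131, adjusted p = 0.00589) in females. The male call was lost without any 1 of 5 arrays (male sham 1, 3 or 4, male MI 1 or 2), with an adjusted p of up to 0.0875.

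Ppan, the mouse relative of the fly gene peter pan and a factor of large subunit maturation, read 7.06, 7.65, 6.37, 7.40 and 7.03 in female sham and 7.81, 7.99, 7.34, 8.11 and 7.98 in female MI hearts. Female sham 3 was the lowest of all arrays, and female MI 3 lay inside the sham range. Ppan rose by 0.74 (SE 0.183, adjusted p = 0.0037) in females, while a second probe differed by 0.24 (adjusted p = 0.259 with every probe tested), and the mean of both rose by 0.49 (adjusted p = 0.00475). In males the values were 7.54, 7.24, 7.43, 7.18 and 7.24 after sham and 7.57, 7.58, 7.94, 7.69 and 7.54 after MI. The highest sham and lowest MI heart were level, and the difference of 0.34 (adjusted p = 0.205) was not called.

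The other large subunit factors were not called. Pes1 and Bop1 belong with Wdr12 to one complex that is needed for processing of the large subunit RNAs. Pes1 read 8.18, 7.80, 5.35, 7.47 and 7.57 in male sham and 8.15, 8.23, 7.87, 7.58 and 7.76 in male MI hearts. In females it read 7.69, 7.35, 7.20, 7.77 and 7.87 after sham and 8.02, 7.27, 7.86, 6.31 and 7.92 after MI. The lowest value in each sex, male sham 3 and female MI 4, came from position F. The differences were 0.65 (SE 0.386, adjusted p = 0.258) in males and -0.10 (SE 0.386, adjusted p = 0.867) in females. Bop1 differed by 0.13 (adjusted p = 0.769) and 0.34 (adjusted p = 0.338), with female sham 2 and male sham 3, both in position F, the lowest of their groups. Ebna1bp2, a nucleolar factor of early large subunit assembly, differed by 0.14 (adjusted p = 0.37) in males and 0.26 (adjusted p = 0.0568) in females, while a second probe gave -0.36 and -0.25 and was not called. Nop2, a cytosine methyltransferase of the large subunit RNA, differed by -0.07 and 0.23. Further Nop2 probes gave 0.11 and 0.18 in males and 0.39 and 0.15 in females and were not called.

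Rrp1b, a nucleolar protein that targets protein phosphatase to the nucleolus, had opposite signs in the 2 sexes. It read 7.67, 7.56, 7.84, 7.36 and 7.61 in male sham and 6.73, 6.69, 7.74, 7.71 and 7.72 in male MI hearts. In females it read 7.48, 8.24, 7.22, 7.56 and 7.55 after sham and 7.78, 8.01, 7.72, 8.18 and 7.87 after MI. Male MI 1 and 2 were about 1 log2 unit below the other 3 male MI hearts, which sat with the sham hearts. The differences of -0.29 (adjusted p = 0.358) in males and 0.30 (adjusted p = 0.291) in females were not called.

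Of the helicase and regulators, Ddx21, an RNA helicase that acts both in RNA polymerase I transcription and in snoRNA release, read 8.26, 8.23, 7.59, 8.22 and 8.07 in male sham and 8.33, 8.46, 8.54, 8.53 and 8.47 in male MI hearts. In females it read 8.49, 6.30, 7.76, 8.24 and 8.23 after sham and 8.33, 8.46, 8.14, 7.80 and 8.78 after MI. The male groups did not overlap, and the lowest heart in 3 groups was the one in position F. Ddx21 differed by 0.39 (SE 0.284, adjusted p = 0.364) in males and 0.50 (SE 0.284, adjusted p = 0.189) in females, the latter 0.12 without female sham 2. A second Ddx21 probe, with every probe tested, differed by 0.26 (adjusted p = 0.312) in males and 0.57 (adjusted p = 0.0158) in females. Gnl3, which encodes the stem cell GTPase nucleostemin, differed by 0.03 and 0.00, and Mybbp1a, a repressor of RNA polymerase I transcription that also binds p53, by 0.08 and -0.05. Neither was called, while 1 of 3 further Mybbp1a probes differed by 0.42 in males (adjusted p = 0.0263 with every probe tested) and -0.05 in females.

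**Figure D3:**
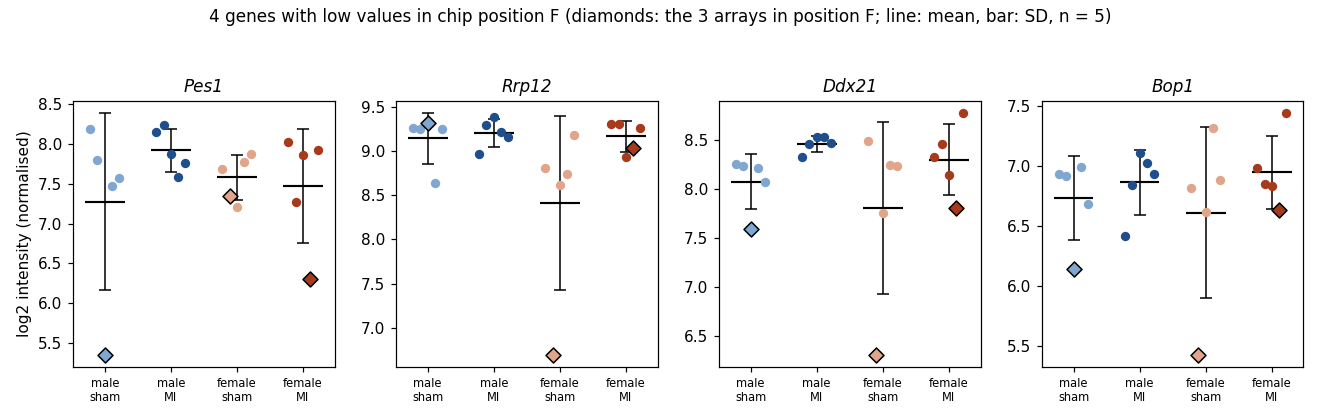
Normalised log2 intensity (vertical axis, a separate scale in each panel) of Pes1, Rrp12, Ddx21 and Bop1 by group (horizontal axis), 1 point per heart with the mean as a line and the SD as a bar (n = 5). Diamonds mark the 3 arrays in chip position F, among them the lowest Pes1 value (male sham 3) and the lowest Rrp12, Ddx21 and Bop1 values (female sham 2).

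The separation of the groups was counted apart from the test. In males 6 of the 24 genes (25%) had every MI heart above every sham heart: Npm1, Nop58, Gar1, Nhp2, Nip7 and Ddx21. Over all features 9.71% separated in that direction, and 0 listed genes separated in the other, against 8.42% of all. In females 0 of the 24 separated upward, against 8.11% of all features, and 0 downward, against 6.83%. For 6 of the 7 genes called in females, female MI 3 was the one MI heart that did not exceed every sham heart. Without it these 6 genes separated (Npm1, Nop58, Gar1, Nhp2, Ppan and Nip7), or 25% against 13.2% of all features. This heart was picked from the same values, so that count followed from the choice and tests nothing. Without any other single female heart 0 to 3 genes separated, the most without female sham 2 (12.5% against 12.1% of all features).

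Averaged over the 24 genes, the log2 level per heart in males was 7.92 ± 0.0783 (SD, n = 5) after sham and 8.07 ± 0.0775 after MI, and in females 7.88 ± 0.103 after sham and 8.13 ± 0.103 after MI. Female MI 3, at 7.96, was the lowest of its group. Transcripts of dividing cells moved in the same hearts. Of 12 measured proliferation markers, 11 were called higher in each sex, and their summed intensity lay in males between 599 and 764 after sham and between 1803 and 2714 after MI, and in females between 579.7 and 926 after sham and between 1741 and 3397 after MI. Mki67 and Ccnb1 had no annotated probe, and Ccna2 and Bub1 did not pass the filter. Macrophage and monocyte markers were called higher in 12 of 15 in males and 14 of 15 in females, with sums in males of 6256 to 7783 after sham and 10498 to 14579 after MI, and in females of 5823 to 8807 and 10234 to 23233, while Itgam did not pass the filter and Cd68 had no annotated probe. Female MI 3 had the lowest sum of its group for both lists.

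Other cell types moved less evenly. Of neutrophil markers 6 of 7 were called higher in each sex, with sums in males of 380.4 to 2467 after sham and 2000.1 to 2906 after MI, and in females of 614 to 2454 and 1719 to 3482, and Mmp8, Camp and Ngp did not pass the filter. Of fibroblast markers 5 of 11 were called higher in males and 4 of 11 in females, with sums in males of 7683 to 14043 after sham and 14937 to 17028 after MI, and in females of 5809.6 to 16235 and 12463 to 18678, and Postn did not pass. The lowest fibroblast sums of male sham, female sham and female MI hearts came from the arrays in chip position F, and the part of position was not tested. Of 15 cardiomyocyte markers 0 were called higher. Ckm was called lower in males, and Ckm, Tnni3 and Ttn in females. Of 12 lymphocyte markers 1 was measured, the B cell marker Cd79b, at a mean level of 4.93. It differed by 0.22 in males and 0.37 in females and was not called. The T and B cell markers Cd3e, Cd3d, Cd3g, Cd4, Cd8a and Ms4a1 did not pass the filter. The part of these cells in the ribosome biogenesis values was not tested, and in bulk tissue a change in the number of cells and a change in RNA per cell cannot be told apart.

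**Figure D4:**
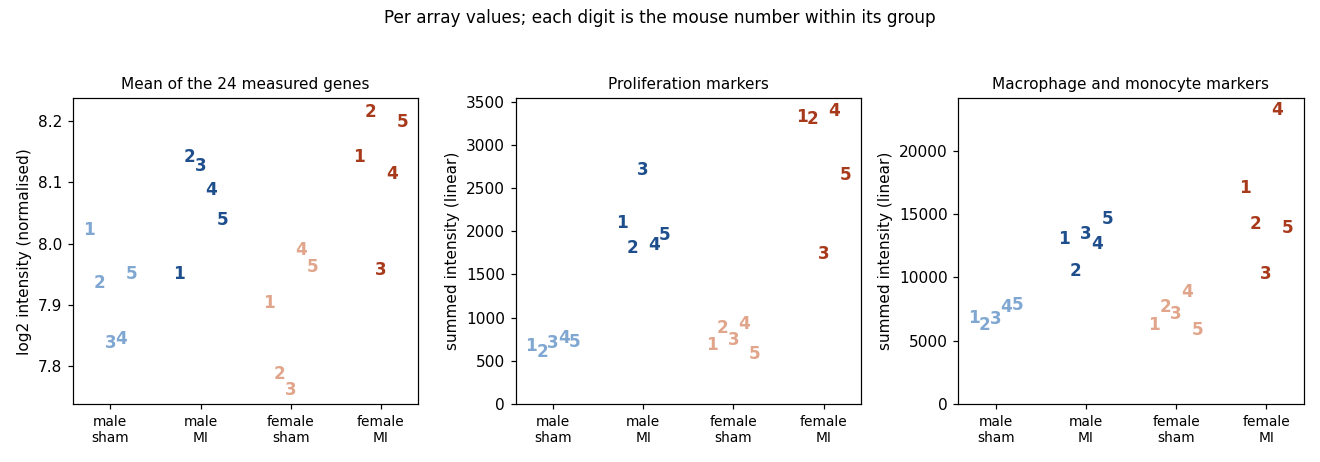
Per heart, the mean log2 intensity of the 24 measured genes (left) and the summed linear intensity of the proliferation markers (middle) and the macrophage and monocyte markers (right), by group on the horizontal axis; each digit is the mouse number. Female MI 3 is the lowest of the female MI hearts in all 3 panels.

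The difference in response between the sexes was tested as an interaction, the female MI minus sham difference less the male one. None of the 24 genes was called and 0 of 12921 features (0%) were. At an unadjusted p under 0.05 the listed genes also gave 0. Rrp1b had the smallest p, with a difference of 0.59 (SE 0.297, adjusted p = 0.6) and a 95% confidence interval of -0.03 to 1.21. For the genes called in females only, the interval was -0.14 to 0.56 for Gar1, -0.13 to 0.94 for Ppan and -0.17 to 0.65 for Wdr43, and each of these held 0. For Rrp9 it was -0.16 to 0.70. Between female and male sham hearts 0 of the 24 genes were called, against 14 features in all (0.108%), with 5 listed genes at an unadjusted p under 0.05. Between female and male MI hearts 0 were called, against 18 features in all (0.139%), with 1 listed gene at an unadjusted p under 0.05. Sex and chip cannot be told apart in the MI groups, which shared no chip.

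Within the chips that held at least 2 mice of both groups, the called differences kept their sign. In males the difference on chip 1 and on chip 2 was 0.62 and 0.29 for Npm1, 0.53 and 0.56 for Nop58, 0.43 and 0.58 for Nhp2, and 0.59 and 0.19 for Nip7. In females on chip 3 it was 0.93 for Ppan, 0.87 for Nhp2, 0.69 for Wdr43 and 0.58 for Gar1. On the same chip it was 0.44 for Nop58, 0.37 for Nip7 and 0.18 for Npm1. With the chip as a block in the fit, Nip7 and Npm1 were no longer called in females, with adjusted p of 0.0635 and 0.0719. With scaling to the 75th percentile, Npm1 and Nhp2 were no longer called in males, with adjusted p of 0.0711 and 0.0933, and Nhp2 was also lost without male MI 2 (adjusted p = 0.0506). Npm1 and Nop58 in males, and all called female genes other than Wdr43, remained called when any 1 of the 20 arrays was left out.

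Further genes of the same pathway were read from the same fit. Of 12 other genes of RNA polymerase I and its factors, 0 were called higher and 2 lower in males, and 0 higher and 3 lower in females. Taf1a, a subunit of the promoter selectivity factor, fell by 0.50 (SE 0.109, adjusted p = 0.00357) in males and 0.71 (SE 0.109, adjusted p = 6.14e-05) in females. Polr2e, a subunit shared by the nuclear RNA polymerases, fell by 0.43 (SE 0.124, adjusted p = 0.019) in males and 0.59 (SE 0.124, adjusted p = 0.00104) in females. Rrn3, the initiation factor that recruits RNA polymerase I, fell by 0.34 (SE 0.124, adjusted p = 0.0421) in females and differed by -0.04 (adjusted p = 0.839) in males. Ubtf, the upstream binding factor of the ribosomal DNA, was not called, at 0.00 in males and -0.22 (adjusted p = 0.193) in females. Against the backgrounds of 8.59% and 16.3% called lower, these were 2 and 3 genes of 12.

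Of 38 measured genes of the small subunit processome, 0 were called in males and 5 in females, all higher, with a median difference of 0.01 in males and 0.03 in females. The 5 were Imp4, a U3 snoRNP protein, at 0.53 (adjusted p = 0.000663), Bud23, a methyltransferase of the small subunit RNA, at 0.32 (adjusted p = 0.0222), Wdr75 at 0.36 (adjusted p = 0.0278), Nop9 at 0.44 (adjusted p = 0.0334) and Heatr1 at 0.45 (adjusted p = 0.0351). Of 47 large subunit assembly genes, 0 were called in males, and in females 4 were called higher and 1 lower, with medians of 0.04 and 0.02. Eif6, which keeps the new large subunit from joining early, rose by 0.72 (SE 0.138, adjusted p = 0.000491), and Nol12, Nsa2 and Rrp15 rose by 0.56, 0.52 and 0.41. Gnl2, a nucleolar GTPase, fell by 0.37 (SE 0.0949, adjusted p = 0.00515). The shares of genes called higher in both lists were below the 16.5% of all features called higher in females.

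Of 19 genes of the RNA exosome and RNase MRP, which trim and cleave the precursor, 0 were called in males, and in females Exosc6, Rpp25 and Pop4 rose and Rpp14 fell. Of 11 factors that assemble snoRNPs, 0 were called in either sex. Of 17 genes of RNA polymerase III, which makes the remaining ribosomal RNA, 0 were called in males, and in females Maf1, its repressor, fell by 0.31 (SE 0.118, adjusted p = 0.0458). Myc itself did not pass the detection filter. Of 9 measured genes of its network, Mlxipl, a glucose-sensing relative that binds a similar site, fell by 0.91 (SE 0.141, adjusted p = 0.000191) in males and 0.88 (SE 0.141, adjusted p = 8.48e-05) in females. Mxd3 rose by 0.71 (SE 0.135, adjusted p = 0.000445) and Mxi1 fell by 0.82 (SE 0.29, adjusted p = 0.0348) in females, both partners of Max that repress Myc targets. In females 3 of 19 exosome and RNase MRP genes and 1 of 9 Myc network genes were called higher, against 16.5% of all features. Called lower were 1 of 19, 1 of 17 for RNA polymerase III and 2 of 9, against 16.3%. In males 1 of 9 Myc network genes was called lower, against 8.59%.

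The nucleolar stress pathway, in which ribosomal proteins bind Mdm2 and free p53, was represented by 8 measured genes. Mdm2 was not called, at -0.20 (adjusted p = 0.287) in males and -0.08 (adjusted p = 0.695) in females. The p53 targets Phlda3, Zmat3 and Cdkn1a, the cell cycle inhibitor p21, rose in females by 0.91 (SE 0.166, adjusted p = 0.000296), 0.38 (SE 0.115, adjusted p = 0.0158) and 0.93 (SE 0.335, adjusted p = 0.0387). In males they differed by 0.43 (adjusted p = 0.073), 0.16 (adjusted p = 0.349) and 0.24 (adjusted p = 0.673). Rrm2b, a p53-inducible subunit of ribonucleotide reductase, fell by 0.34 (SE 0.0985, adjusted p = 0.0212) in males and 0.52 (SE 0.0985, adjusted p = 0.000396) in females. In males 0 of the 8 were called higher and 1 lower, where 9.77% and 8.59% of all features were. In females 3 of the 8 were called higher and 1 lower, where 16.5% and 16.3% of all features were. No gene of any of these pathway lists was called in the interaction.

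**Figure D5:**
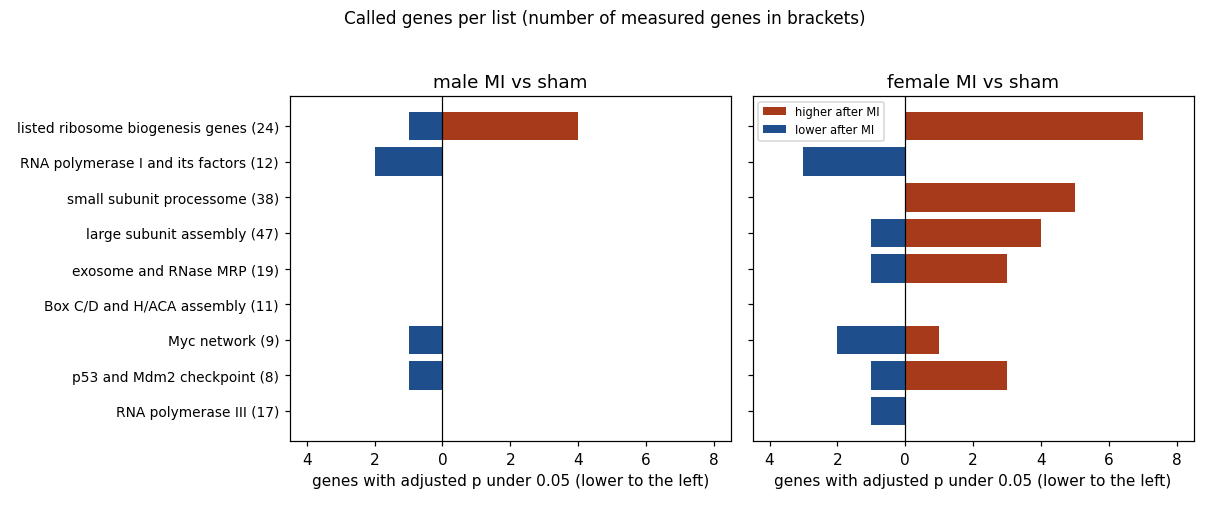
Number of genes with an adjusted p under 0.05 (horizontal axis, lower after MI in blue to the left, higher in red to the right) in each gene list (vertical axis, measured genes in brackets), for males and females (n = 5 mice per group). The listed ribosome biogenesis genes show 4 higher and 1 lower in males and 7 higher in females; RNA polymerase I and its factors show calls to the left only.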

How the data were processed

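The authors deposited a table of linear bead intensity for each probe and array, which its values show to be neither normalised nor background subtracted. Per the file headers, that deposited table gives a detection p-value for each intensity. A second deposited table holds log2 values with nearly identical distributions, used as an alternative; on 20 of 20 arrays its column matched the intensities of the same label best (r from 0.997), and its values were not centred (medians 5.14 to 5.15). The scanner software is not given in the sources used here.

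Intensities were processed with limma 3.58.1 in R 4.3.3: neqc, which estimated negative controls through the detection p-values, an offset of 16, quantile normalisation and log2. Of 45281 probes, 34885 had 1 symbol, 18 had several and 10378 had none in the platform annotation. The 18683 probes with a detection p under 0.01 on at least 5 arrays were kept, and the probe with the highest mean per symbol was tested. The 12921 features, 10278 with a symbol, were fitted in 1 linear model with a coefficient per group over all 20 arrays (16 residual degrees of freedom, no covariate), with moderated tests by eBayes, and the 5 comparisons each had Benjamini-Hochberg adjustment over all features. Each array was 1 mouse, the closest pair differing by a median of 0.123, and the number of arrays limits the precision. Labels give replicate numbers and no pairing, so the numbers were not taken as pairs. The deviations of same-numbered MI and sham arrays correlated at r from -0.33 to 0.14 in males and -0.06 to 0.32 in females. With 5 numbers per sex these values cannot exclude a pairing. The method was tested on simulated data.

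The listed genes, pathway lists, marker lists and motifs were chosen with earlier results of these data known. All listed genes could be named. From each pathway list the 3 genes with the smallest p were named, and Myc, Mdm2, Ubtf and Rrn3. Heatr1, Nop9, Rrp15, Gnl2, Pop4, Cdkn1a, Ckm, Tnni3 and Ttn were named after their values were seen. Promoters came from RefSeq on GRCm38.p6. Alternatives were other background, scaling, filter and probe choices, the deposited matrix, the replicate number or chip as a block, single chips, no position F, only the groups compared, array weights and leaving out each array.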

Additional observations from a re-analysis of the deposited data

Results flagged for a closer look

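Of 96 sets of 5 hearts (24 genes in 4 groups), 9 held a highest or lowest heart whose gap to its neighbour exceeded Dixon's critical share of 0.71 of the range, where chance flags about 1 in 20. Of these, 4 lay in chip position F. Pes1 in male sham 3 was 5.35, against 7.47 to 8.18 in the other hearts of its group. Rrp12 in female sham 2 was 6.69, against 8.61 to 9.18. Ddx21 in male sham 3 was 7.59, against 8.07 to 8.26. Rrp9 in female sham 2 was high at 7.94, with the rest between 7.35 and 7.44.

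The other 5 lay in other positions. Rrp12 in male sham 4 was low at 8.64, with the rest between 9.24 and 9.32. Ncl was high in male MI 2 at 8.58 (the rest 8.30 to 8.37) and in female sham 4 at 8.76 (the rest 8.31 to 8.42). Nop56 was high in male MI 2 at 7.60, with the rest between 7.20 and 7.31, and Ebna1bp2 was low in male MI 1 at 8.43, with the rest between 8.70 and 8.76. The part of array position in these values was not tested.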

How the results depend on the processing

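Over 3888 repeats of single-gene results, 3822 kept their side of the threshold, 45 lost a call, 21 gained one and 0 called results reversed. Among uncalled differences 172 changed sign. Most of these repeats were of results not called in the main fit, which had no call to lose. The 45 losses fell on the 5 results called in males and the 7 called in females. With each of the 20 arrays left out, Rrp9 kept its male call in 9 fits and Wdr43 its female call in 15. Npm1 and Nop58 kept theirs in all 20 in both sexes. The number of listed genes called in males was 3 with 75th percentile scaling, 0 within chip 2 (2 hearts against 2, where 624 features were called) and 8 with array weights (4150 features). In females it was 0 within chip 3, where 946 features were called. With array weights 31 features were called in the interaction, 32 between the sham groups, and 1981 between the MI groups, 2 of them listed genes. Between the sham groups 6 features were called with detection on all 20 arrays, 7 with the chip as a block and 7 in a fit of only these groups; between the MI groups 9 and 4 were called with the first and the second of these settings. The cause was not tested, except that fewer arrays or features were tested in the single-chip, detection and group settings. With the replicate block, 5 listed genes were called in males and 7 in females, of 2177 and 4117 features. In each sex 2 of 5 arrays correlated best with their own number, too few arrays to decide whether the numbers pair the samples.

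Leaving out 1 array gave 3 to 6 listed genes called in males (3 without male sham 1), 6 to 8 in females and 0 in the other comparisons, and a median difference of the listed genes of 0.11 to 0.19 in males and 0.18 to 0.33 in females. All features called ranged from 1711 to 2711 in males, 3501 to 4634 in females, 9 to 45 between the sham groups (45 without male sham 4) and 11 to 635 between the MI groups (635 without female MI 3). Listed genes separated upward numbered 6 to 8 in males (25% to 33.3%), against 9.91% to 11.8% of all features. In females they numbered 0 to 6 (0% to 25%), against 8.18% to 13.2% of all features, and 6 was reached only without female MI 3. These counts were added after seeing the data. Genes under detection on every array, such as Dkc1, could not be measured here, and the reason was not tested. A probe can also go undetected for a detected gene. For Npm1, 1 probe was detected on 0 arrays and another on all 20.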

Other observations

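Rrp1b was read by 4 probes that passed the filter. All 4 differences were below 0 in males and above 0 in females, and none was called. The probes read the same hearts, and the male differences were -0.29, -0.23, -0.08 and -0.025. The probe at -0.08 was detected on 12 of the 20 arrays, at a mean level of 4.90. On the probe at -0.025, male MI 2, at 5.38, lay above male sham 2 and 5, at 5.28 and 5.22. A second probe read 6.53, 6.59, 7.69, 7.62 and 7.40 in male MI 1 to 5, so male MI 1 and 2 were low on it as well as on the probe used in the report, where they read 6.73 and 6.69.

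Female MI 3 had a proliferation marker sum of 1741, where the other 4 female MI hearts had 2647 to 3397, and a macrophage and monocyte marker sum of 10234, where they had 13854 to 23233. Its mean over the 24 measured ribosome biogenesis genes was 7.96, where theirs were 8.11 to 8.21. All 3 values lay toward the sham hearts of its sex, whose highest were 926, 8807 and 7.99. The array was not in chip position F.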
